A study of Mus musculus with 19 samples.

Results

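Interferon-stimulated genes are the genes that cells switch on when interferons, the cytokines of antiviral defence, bind their receptors. The 45 genes described here were taken from the RPM table by symbol, and all 45 had a row among its 24844 rows and entered the tests. RPM is the share of a library's counted reads that fall on a gene, scaled to a common library size. The tissue was inguinal white adipose tissue, a subcutaneous fat depot that encloses a lymph node, from 19 C57BL/6JRj wild-type mice housed at 29 °C, with 1 library per mouse. In all 3 tumour groups CHX207 fibrosarcoma cells had been injected into the calf muscle, and tissue was taken 14 days later. The 5 tumour control mice had also received a control adeno-associated virus (AAV) intravenously 9 days before the tumour cells. Another 5 tumour mice received an AAV encoding FGF21, an endocrine hormone of energy metabolism, at that same time. The third tumour group, again 5 mice, was given efruxifermin, an FGF21 analogue, in 6 intraperitoneal injections of 2 mg/kg starting 9 days before the tumour cells, and the labels name no vector for these mice. The 4 healthy mice carried no tumour and received the control AAV and PBS. A viral vector was therefore stated for 14 of the 19 mice, in the healthy, tumour control and FGF21 AAV groups. Between efruxifermin and every other group, drug and absence of a stated vector cannot be told apart, whereas tumour control against healthy and FGF21 AAV against tumour control compared mice that all carried a vector.

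Type I interferons signal through the IFNAR receptor and the kinases JAK1 and TYK2 to a complex that contains STAT2 and IRF9 and binds interferon-stimulated response elements. Type II interferon, interferon gamma, signals through the IFNGR receptor, JAK1 and JAK2 to factors that bind gamma-activated sites and induce antigen-processing genes, guanylate-binding proteins and immunity-related GTPases. In adipose tissue both adipocytes and resident immune cells respond to interferons, and lymphoid cells carry high basal levels of several interferon-gamma-inducible genes. In a bulk library, fewer cells of a type and less RNA per cell cannot be told apart.

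Libraries held 2011067 to 3693864 reads, so a count of 0 allows up to 0.812 to 1.49 RPM depending on the library (3 reads, counting error only). Of the 45 genes, 34 were detected in all 19 libraries and 11 were at 0 in at least 1. Mean levels over the 19 libraries went from 1.28 RPM for Oas1a to 238 RPM for Ifi27, so the precision of the values differed widely among members. The tissue carried adipocyte markers in every library, with a summed level of 1470 to 31427 RPM over 10 genes. It carried B cell markers unevenly. A B cell score, the mean log2(RPM + 1) of 10 B cell genes, was above 3 in 2 of 4 healthy mice, 4 of 5 tumour controls, 2 of 5 FGF21 AAV mice and 3 of 5 efruxifermin mice. That cutoff was set after the scores were seen, and libraries above it are called B-cell-rich in what follows. The summed level of the B cell markers was 3.66 to 1592 RPM in healthy mice, 4.60 to 3592 RPM in tumour controls, 7.48 to 1083 RPM under FGF21 AAV and 14.0 to 1193 RPM under efruxifermin. In tumour control 4, healthy 4 and efruxifermin 3, 9 of the 10 B cell markers were at 0. Skeletal muscle markers also varied, from 3.81 to 103005 RPM summed over 10 genes, with the highest value in tumour control 4. Macrophage markers summed to 232 to 2084 RPM, both ends being efruxifermin mice.

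No member passed an adjusted p of 0.05 in any of the 6 comparisons among the 4 groups, by limma on log2(RPM + 1) with Benjamini-Hochberg adjustment over 17013 genes. Over all genes the share that passed was 0.047% for tumour control against healthy, 0.564% for FGF21 AAV against tumour control, 0.764% for efruxifermin against tumour control, 0% for efruxifermin against FGF21 AAV, 0.0118% for FGF21 AAV against healthy and 0% for efruxifermin against healthy. The smallest adjusted p of a member in those comparisons, in the same order, was 0.306, 0.124, 0.0796, 0.820, 0.937 and 0.590. At an unadjusted p under 0.05, 0 of 45 members stood higher and 2 lower in tumour controls than in healthy mice, beside 0.823% and 7.49% of all genes. FGF21 AAV against tumour control gave 3 higher and 5 lower, beside 8.82% and 7.14% of all genes. Efruxifermin against tumour control gave 2 higher and 2 lower, beside 6.53% and 7.35%. Between the treated groups 1 member was higher under efruxifermin and 0 lower, beside 1.69% and 3.87%. FGF21 AAV against healthy gave 0 and 0, beside 1.12% and 4.22%, and efruxifermin against healthy gave 1 higher and 1 lower, beside 1.05% and 7.02%. With 45 members each of these counts is a few genes, and nothing particular to the list is read from them. Without tumour control 4 alone, 3 members passed for FGF21 AAV against tumour control (Irf8, Tap1 and Irf9, all lower) where 1018 of all genes did, and 2 passed for efruxifermin against tumour control (Ifi44 higher and Psmb8 lower) where 637 did. edgeR called no member in the 6 comparisons, beside 0.00588%, 0.047%, 0.27%, 0%, 0.00588% and 0% of all genes, and DESeq2 called 1 in each of 2 comparisons, described with Ifi27 and Ifi44 below. The tumour control mice were shared by the first 3 of these comparisons, so their values are given side by side without being counted as separate evidence.

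The members did not move as a block. Their median log2 difference was 0.04 for tumour control against healthy, -0.03 for FGF21 AAV against tumour control and -0.07 for efruxifermin against tumour control, where the medians over all genes were -0.16, -0.05 and -0.14. In those comparisons 24, 22 and 20 of the 45 members stood above 0, beside 38.9%, 47.2% and 41.7% of all genes, and the values spread from -1.40 to 1.84, from -2.47 to 1.48 and from -1.51 to 1.44. The 13 interferon-gamma-inducible members (Irf1, Irf8, Gbp2, Gbp3, Gbp4, Gbp7, Igtp, Irgm1, Iigp1, Psmb8, Psmb9, Tap1 and Cxcl9) had median log2 differences of 0.29, -0.50 and -0.57. The other 32 members, mostly genes of the type I response, had medians of -0.13, 0.07 and 0.01. The precision was limited. A 95% interval within 2-fold in either direction was reached by 6, 7 and 5 members in these 3 comparisons, or by 14.5%, 13.7% and 14.4% of all genes. For the other members the interval did not exclude a 2-fold difference. The group with the highest mean was efruxifermin for 17 members, tumour control for 14, FGF21 AAV for 8 and healthy for 6. Efruxifermin 1 alone was the highest library for 16 members. The same counts were not made over all genes, so nothing is read from them.

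**Figure D1:**
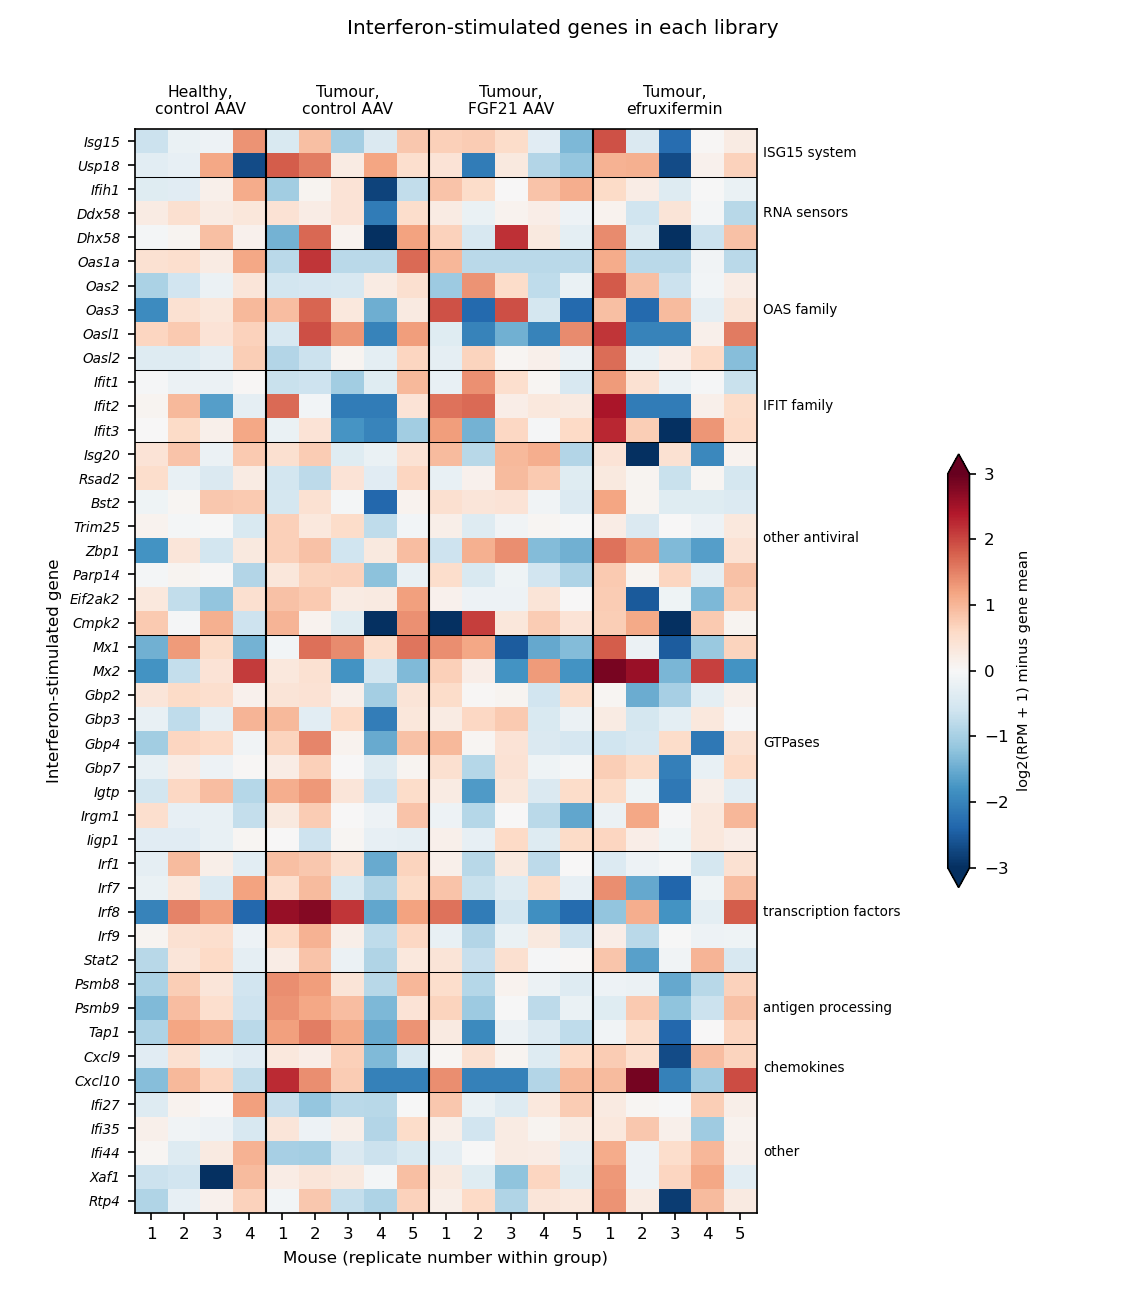
Level of the 45 interferon-stimulated genes in the 19 mice, as log2(RPM + 1) minus the gene's mean over all libraries, with genes in rows by role and mice in columns by group; colours are limited at 3 in either direction, which 8 of 855 values pass. Columns differ within a group about as visibly as between groups: efruxifermin 1 is high in many rows, while efruxifermin 3 and tumour control 4 are low in many.

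**Figure D2:**
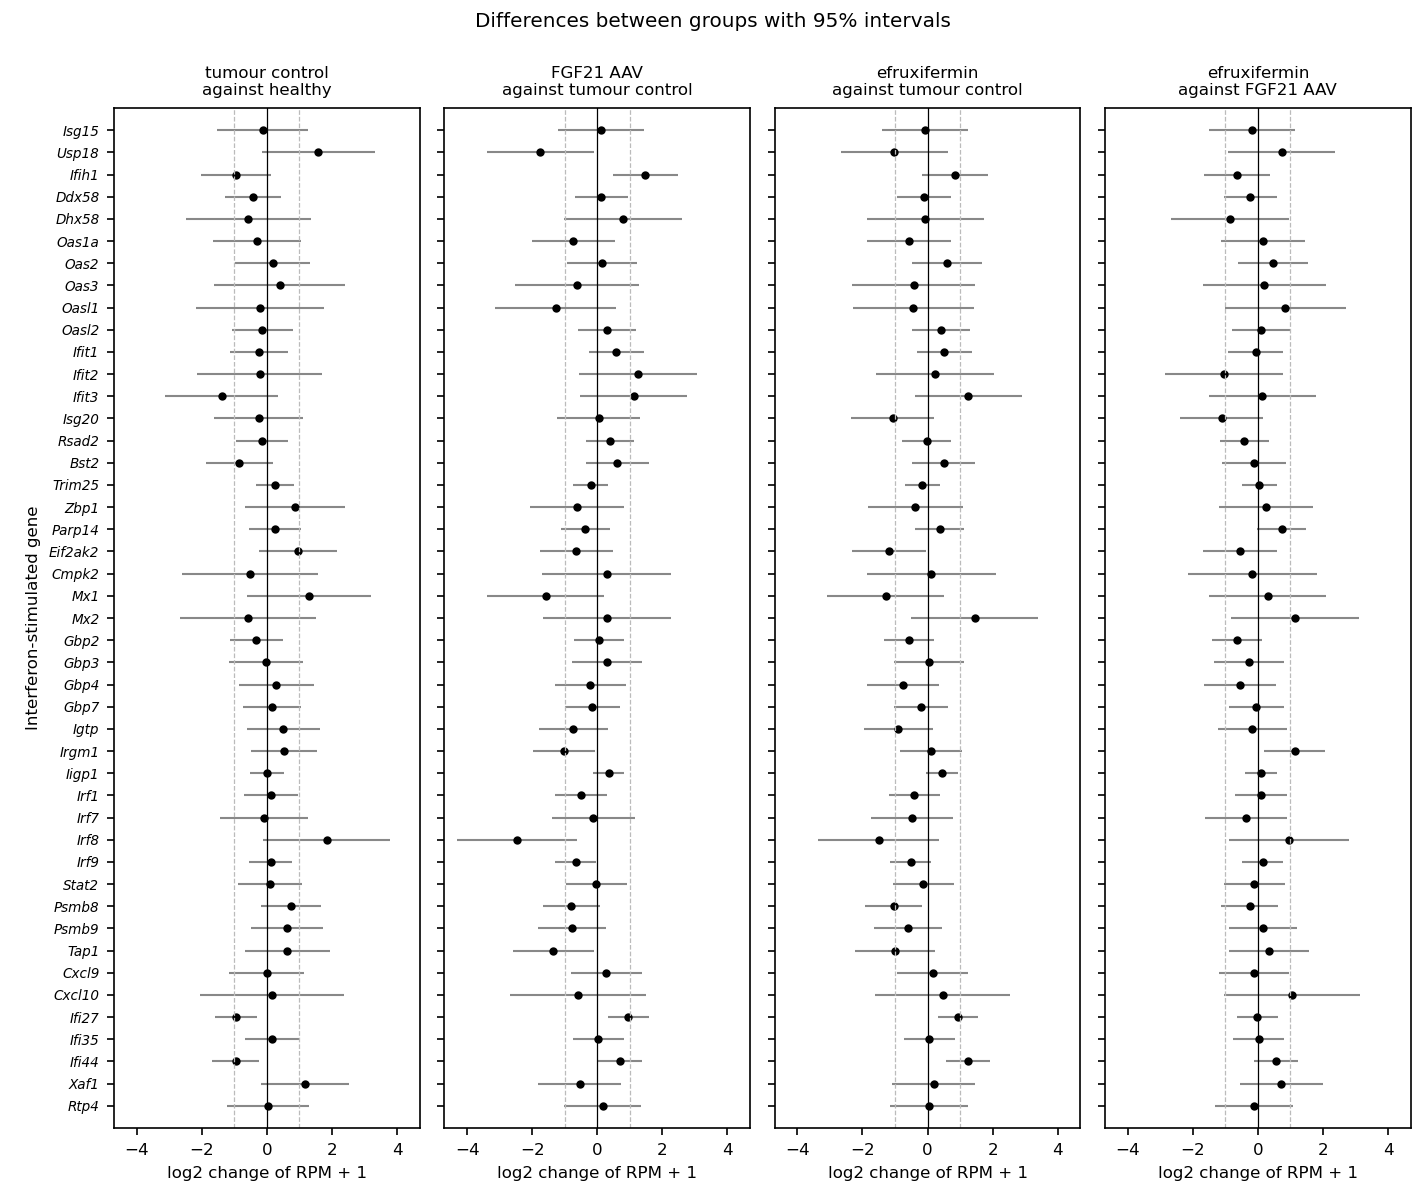
Log2 differences of the members in 4 comparisons, with points for the estimates and bars for their 95% intervals from limma; dashed lines mark a 2-fold difference in either direction. No member passed an adjusted p of 0.05, and most intervals cross both 0 and a dashed line.

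Upstream of the members, the ligands could hardly be read. Of 21 interferon ligand genes only Ifng, the type II ligand, was analysed here, and it stood at 0 in 18 libraries and at 0.702 RPM in tumour control 3. The 20 other ligand genes were not analysed here. None of the 10 receptor and kinase genes passed limma's test in any comparison. DESeq2 called 1 of them, Jak1, for FGF21 AAV against tumour control, where 6.89% of the 7085 genes with a DESeq2 adjusted p passed. Their median log2 difference was 0.15 for tumour control against healthy, -1.0 for FGF21 AAV against tumour control and -0.11 for efruxifermin against tumour control. Jak1, the kinase shared by both receptor types, stood at log2 -1.13 ± 0.37 SE, adjusted p = 0.142 by limma and 0.0184 by DESeq2, for FGF21 AAV against tumour control. Ifngr2, the signalling chain of the interferon gamma receptor, stood at -1.84 ± 0.72, adjusted p = 0.252, for efruxifermin against tumour control. Of 13 upstream sensors and adaptors 12 were tested and none passed by limma. Tlr7, an endosomal RNA receptor, had a log2 difference of -2.46 ± 0.91 for FGF21 AAV against tumour control, adjusted p = 0.188. Among 6 feedback inhibitors none passed by limma. Ptpn6, a phosphatase of haematopoietic cells, stood at -2.75 ± 0.98 in that comparison. Its adjusted p was 0.171 by limma and 0.0450 by DESeq2, beside the same 6.89% of genes.

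Among the transcription factors, Irf8 (ENSMUSG00000041515), which is induced by interferon gamma and guides myeloid and B cell development, had the largest log2 difference of any member in each of the 3 comparisons that involve tumour controls. Irf8 levels in the healthy mice were 20.7, 245, 209 and 16.1 RPM, and those in the tumour controls were 534, 588, 387, 29.0 and 201 RPM. For Irf8, the FGF21 AAV mice had 272, 19.4, 58.4, 23.4 and 16.8 RPM and the efruxifermin mice 37.5, 186, 24.2, 70.3 and 309.8 RPM. Tumour controls 1, 2 and 3 were the highest of the 19 libraries, yet tumour control 4 lay with the low ones, so no group was separated from another. FGF21 AAV mouse 1 stood far above the other four in its group. The mean was 348 ± 233 RPM (SD, n = 5) in tumour controls and 78.0 ± 109.8 RPM (SD, n = 5) under FGF21 AAV (log2 -2.47 ± 0.89 SE, adjusted p = 0.18). Its difference was log2 1.84 ± 0.95 SE, adjusted p = 0.633 for tumour control against healthy, and log2 -1.51 ± 0.89 SE, adjusted p = 0.463 for efruxifermin against tumour control. The B cell markers moved with these values, with median log2 differences of 2.54, -3.35 and -2.12 in the 3 comparisons, and so did 10 T and natural killer cell markers, with 1.47, -3.06 and -2.95. For 4 tested markers of plasmacytoid dendritic cells, which also express Irf8, the medians were 1.30, -1.51 and -2.19. The parts of these cell types were not separated. The difference for FGF21 AAV against tumour control was -0.53 when the B cell score was added to the fit. The corresponding values for tumour control against healthy and efruxifermin against tumour control were 0.39 and -0.25. Without tumour control 4, the B-cell-poor tumour control, it was -3.21 with an adjusted p of 0.0337.

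Irf1, a transcription factor that interferon gamma induces, and Irf9, the DNA-binding subunit of the type I complex, followed with smaller differences. Irf1 had 109, 255, 150.4 and 105 RPM in the healthy group and 246, 231, 185, 45.5 and 210.2 RPM in the tumour control group. Irf1 values with FGF21 AAV were 147, 73.6, 161, 76.6 and 132 RPM, and with efruxifermin 99.5, 118, 126, 91.5 and 183 RPM. Tumour control 4 had the lowest Irf1 level of all libraries and every pair of groups overlapped. Irf9 read 103, 135, 139.9 and 87.9 RPM in the healthy mice and 148, 203, 112, 57.9 and 151 RPM in the tumour controls. For Irf9, the FGF21 AAV mice had 83.4, 52.7, 85.6, 120.3 and 63.2 RPM and the efruxifermin mice 113, 55.6, 96.8, 88.6 and 90.4 RPM. Tumour control 2 was the highest for Irf9, FGF21 AAV 2 was the lowest, and tumour control 4 again stood low. Between FGF21 AAV and tumour control Irf1 differed by log2 -0.50 ± 0.38 SE, adjusted p = 0.552, and Irf9 by log2 -0.67 ± 0.31 SE, adjusted p = 0.287. Irf7, the amplifier of type I interferon production, ranged over 2.46 to 46.9 RPM and its log2 differences over the 6 comparisons were -0.57 to -0.09. Stat2, the type I transducer, ranged over 9.93 to 67.4 RPM with differences of -0.13 to 0.10.

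Isg15, the ubiquitin-like protein that is conjugated to targets during the interferon response, did not separate the groups. Isg15 levels in the healthy mice were 9.85, 13.7, 14.4 and 42.5 RPM, and those in the tumour controls were 11.4, 30.6, 7.37, 11.6 and 28.9 RPM. Isg15 values with FGF21 AAV were 27.0, 27.8, 23.8, 12.5 and 5.72 RPM, and with efruxifermin 62.9, 11.6, 2.46, 16.5 and 19.1 RPM. The highest value was that of efruxifermin 1 and the lowest that of efruxifermin 3, so the treated group spanned the whole range. Isg15 differed by log2 0.11 ± 0.64 SE, adjusted p = 0.957, for FGF21 AAV against tumour control and by log2 -0.07 ± 0.64 SE, adjusted p = 0.975, for efruxifermin against tumour control. Usp18, the protease that removes ISG15 and dampens IFNAR signalling, was low in many libraries. Usp18 had 4.22, 4.45, 13.3 and 0 RPM in the healthy group and 21.8, 17.8, 6.67, 13.5 and 8.19 RPM in the tumour control group. Usp18 was at 7.55, 0.497, 6.93, 2.49 and 1.91 RPM under FGF21 AAV and at 12.2, 12.6, 0, 6.01 and 9.34 RPM under efruxifermin. Healthy 4 and efruxifermin 3 were at 0, and the tumour controls overlapped with each other group. The FGF21 AAV mice had a mean of 3.87 ± 3.16 RPM (SD, n = 5), and the tumour controls 13.6 ± 6.38 RPM (SD, n = 5) (log2 -1.75 ± 0.79 SE, adjusted p = 0.282).

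Of the cytoplasmic RNA sensors, Ifih1, which encodes MDA5, had the largest positive difference of any member for FGF21 AAV against tumour control. Ifih1 read 15.8, 16.3, 23.0 and 45.8 RPM in the healthy mice and 9.49, 21.9, 28.1, 2.17 and 12.1 RPM in the tumour controls. Ifih1 values with FGF21 AAV were 38.5, 30.8, 20.8, 38.3 and 45.1 RPM, and with efruxifermin 31.3, 24.5, 15.8, 20.6 and 17.9 RPM. FGF21 AAV mice 1, 2, 4 and 5 lay above every tumour control, and FGF21 AAV 3 lay below tumour controls 2 and 3. The lowest library was tumour control 4, at 2.17 RPM. The difference was log2 1.48 ± 0.49 SE, adjusted p = 0.149. It was 0.75 among B-cell-rich libraries alone, 3.61 (adjusted p = 0.0706) among the B-cell-poor ones with tumour control 4 as the lone tumour control, and 0.99 without tumour control 4 and efruxifermin 3. With the B cell score in the fit it was 1.75, and with the B cell and muscle scores 1.02. For tumour control against healthy it was log2 -0.95 ± 0.52 SE, adjusted p = 0.677. Ddx58, which encodes the sensor RIG-I, was lowest in that library too. Ddx58 levels in the healthy mice were 52.4, 61.6, 51.8 and 55.7 RPM, and those in the tumour controls were 59.8, 51.5, 58.9, 9.47 and 64.0 RPM. Ddx58 was at 52.5, 37.8, 47.0, 50.2 and 39.1 RPM under FGF21 AAV and at 46.9, 28.5, 57.5, 42.1 and 24.3 RPM under efruxifermin. The other tumour controls lay within or close to the healthy range. The Ddx58 difference for FGF21 AAV against tumour control was log2 0.13 ± 0.40 SE, adjusted p = 0.907. Dhx58, a regulator of both sensors also called LGP2, ranged over 0 to 40.1 RPM, with differences of -0.86 to 0.79.

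The OAS family makes or mimics the enzymes that activate RNase L on double-stranded RNA. Oasl2 was its best-covered member. Oasl2 had 25.7, 25.6, 28.1 and 56.8 RPM in the healthy group and 18.0, 21.2, 36.1, 27.6 and 53.4 RPM in the tumour control group. For Oasl2, the FGF21 AAV mice had 28.0, 54.7, 35.1, 37.7 and 29.9 RPM and the efruxifermin mice 110.1, 28.8, 38.9, 51.9 and 13.5 RPM. Efruxifermin 1 had the highest level and efruxifermin 5 the lowest, so the groups overlapped throughout. Oasl2 differed by log2 0.30 ± 0.43 SE, adjusted p = 0.781, for FGF21 AAV against tumour control and by log2 0.41 ± 0.43 SE, adjusted p = 0.692, for efruxifermin against tumour control. Oasl1, a family member that represses Irf7 translation in mice, was near the detection limit in many libraries. Oasl1 read 5.27, 5.94, 4.32 and 5.50 RPM in the healthy mice and 1.90, 14.4, 9.12, 0 and 8.58 RPM in the tumour controls. Oasl1 was at 2.16, 0, 0.495, 0 and 9.85 RPM under FGF21 AAV and at 16.9, 0, 0, 3.48 and 10.8 RPM under efruxifermin. The healthy values were tight and the other groups ran from 0 upward on both sides of them. For FGF21 AAV against healthy the Oasl1 difference was log2 -1.50 ± 0.95 SE, adjusted p = 0.939. Oas1a, a 2-5 oligoadenylate synthetase, rested on 0 to 18 reads per library. Oas1a levels in the healthy mice were 1.41, 1.49, 1.08 and 2.93 RPM, and those in the tumour controls were 0, 6.81, 0, 0 and 4.68 RPM. For Oas1a, the FGF21 AAV mice had 2.52, 0, 0, 0 and 0 RPM and the efruxifermin mice 2.81, 0, 0, 0.633 and 0 RPM. All 4 healthy mice had reads of Oas1a, but only 3 to 8 each. No read was found in 3 of 5 tumour controls, 4 of 5 FGF21 AAV mice and 3 of 5 efruxifermin mice. Detection over all genes differed in the same direction. Mean numbers of genes detected per library were 16639 for healthy, 15601 for tumour control, 15340 for FGF21 AAV and 14193 for efruxifermin mice. Nothing particular to Oas1a is therefore read from its counts of 0. The gene was at 0 in 10 of 19 libraries, and the difference for FGF21 AAV against healthy was log2 -1.04 ± 0.66 SE, adjusted p = 0.939. Oas2 and Oas3, larger synthetases of the family, ranged over 7.19 to 61.9 RPM and 0 to 18.3 RPM, with differences of 0.13 to 0.78 and -0.62 to 0.39. The Oas1 genes are near-identical copies whose reads the counting could have split, as are Ifit3 and its copy, the guanylate-binding proteins and Mx1 and Mx2 in part, so single-gene values in these families are uncertain.

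The IFIT proteins bind viral RNA that lacks the host cap modification. Ifit1 had 40.8, 37.1, 36.7 and 43.2 RPM in the healthy group and 26.1, 26.9, 19.998, 32.2 and 83.5 RPM in the tumour control group. Ifit1 values with FGF21 AAV were 35.6, 109, 59.4, 43.6 and 29.9 RPM, and with efruxifermin 104, 58.2, 36.5, 40.8 and 26.2 RPM. The highest Ifit1 values belonged to FGF21 AAV 2, efruxifermin 1 and tumour control 5, 1 in each tumour group, and the healthy values were close together. Ifit2 read 3.52, 7.42, 0.360 and 2.56 RPM in the healthy mice and 12.8, 3.03, 0, 0 and 4.68 RPM in the tumour controls. For Ifit2, the FGF21 AAV mice had 12.2, 12.9, 3.96, 4.36 and 4.13 RPM and the efruxifermin mice 22.5, 0, 0, 3.80 and 5.23 RPM. Ifit2 was at 0 in 4 libraries, and efruxifermin 1 stood far above the rest of its group. Ifit3 levels in the healthy mice were 8.44, 13.0, 9.35 and 19.8 RPM, and those in the tumour controls were 7.12, 11.3, 1.75, 1.35 and 3.51 RPM. Ifit3 values with FGF21 AAV were 21.2, 2.49, 13.4, 8.10 and 13.0 RPM, and with efruxifermin 43.8, 14.6, 0, 22.5 and 13.1 RPM. Ifit3 was lowest in efruxifermin 3, at 0, and highest in efruxifermin 1. For FGF21 AAV against tumour control the 3 log2 differences were 0.58, 1.26 and 1.12 for Ifit1, Ifit2 and Ifit3, with adjusted p of 0.51, 0.506 and 0.52. For tumour control against healthy they were -0.25, -0.22 and -1.40, with adjusted p of 0.95, 0.986 and 0.73. None passed limma's test.

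Among the other antiviral effectors, Trim25, the ubiquitin ligase that acts on RIG-I, had group means close to each other. Trim25 had 113, 101, 104 and 75.5 RPM in the healthy group and 171, 131, 153, 61.2 and 99.1 RPM in the tumour control group. Trim25 was at 118, 79.6, 97.5, 108 and 104 RPM under FGF21 AAV and at 123, 76.8, 105, 93.7 and 131 RPM under efruxifermin. Tumour controls held both the highest and the lowest Trim25 value. The 95% interval of its difference stayed within 2-fold for tumour control against healthy (log2 0.25 ± 0.28 SE, adjusted p = 0.899). Eif2ak2, which encodes the double-stranded RNA kinase PKR, varied more. Eif2ak2 read 20.4, 9.28, 6.47 and 22.7 RPM in the healthy mice and 30.4, 28.4, 19.3, 19.8 and 39.0 RPM in the tumour controls. Eif2ak2 values with FGF21 AAV were 17.6, 14.4, 14.4, 21.5 and 16.2 RPM, and with efruxifermin 27.8, 1.99, 14.7, 5.70 and 27.7 RPM. Efruxifermin 2 and 4 were the lowest libraries while efruxifermin 1 and 5 lay inside the tumour control range. The difference for efruxifermin against tumour control was log2 -1.18 ± 0.55 SE, adjusted p = 0.336. Isg20 encodes an exonuclease that degrades single-stranded RNA. Isg20 levels in the healthy mice were 25.0, 34.5, 16.2 and 32.6 RPM, and those in the tumour controls were 26.1, 31.8, 14.0, 16.0 and 25.3 RPM. Isg20 was at 36.7, 9.95, 37.1, 40.5 and 9.53 RPM under FGF21 AAV and at 24.7, 0.993, 25.6, 4.11 and 19.8 RPM under efruxifermin. Efruxifermin 2 and 4 were the lowest libraries for Isg20, and all groups overlapped. Isg20 differed, for efruxifermin against tumour control, by log2 -1.07 ± 0.62 SE, adjusted p = 0.448. The other five effectors were given by their ranges. Rsad2, encoding viperin, ranged over 20.4 to 70.3 RPM, Bst2, encoding tetherin, over 3.52 to 51.6 RPM, Zbp1, a sensor of Z-form nucleic acids, over 2.81 to 39.4 RPM, Parp14, an ADP-ribosyltransferase, over 26.5 to 119 RPM and Cmpk2, a mitochondrial nucleotide kinase, over 0 to 38.8 RPM. Their log2 differences over the 6 comparisons were -0.41 to 0.38, -0.85 to 0.62, -0.62 to 0.86, -0.36 to 0.74 and -0.52 to 0.29 in that order.

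The GTPase group had 9 members. Iigp1, an immunity-related GTPase that attacks vacuoles of intracellular parasites, had overlapping levels in the 4 groups. Iigp1 had 117, 117, 127 and 155 RPM in the healthy group and 150.5, 96.5, 155, 126 and 122 RPM in the tumour control group. For Iigp1, the FGF21 AAV mice had 165, 124, 226, 114 and 222 RPM and the efruxifermin mice 233, 169, 135, 185 and 169.7 RPM. Efruxifermin 1 was the highest library and tumour control 2 the lowest, with a range of 96.5 to 233 RPM. Iigp1 differed by log2 0.00 ± 0.25 SE, adjusted p = 1.0, for tumour control against healthy and by log2 0.45 ± 0.24 SE, adjusted p = 0.40, for efruxifermin against tumour control. Irgm1, a regulator of that family and of autophagy, was the only member with an unadjusted p under 0.05 between the treated groups. Irgm1 read 19.3, 11.1, 11.2 and 7.70 RPM in the healthy mice and 16.6, 23.1, 13.3, 11.9 and 25.0 RPM in the tumour controls. Irgm1 was at 11.9, 6.96, 13.4, 7.17 and 3.81 RPM under FGF21 AAV and at 11.6, 31.1, 13.0, 16.8 and 27.7 RPM under efruxifermin. FGF21 AAV 5 was the lowest library and efruxifermin 2 the highest, but efruxifermin 1 and 3 overlapped with FGF21 AAV 1 and 3. The difference for efruxifermin against FGF21 AAV was log2 1.13 ± 0.46 SE, adjusted p = 0.82, and for FGF21 AAV against tumour control log2 -1.03 ± 0.46 SE, adjusted p = 0.276. Gbp2, a guanylate-binding protein that coats intracellular pathogens, was lowest under efruxifermin. Gbp2 levels in the healthy mice were 42.2, 48.6, 46.0 and 35.5 RPM, and those in the tumour controls were 42.2, 43.9, 35.8, 15.4 and 42.5 RPM. For Gbp2, the FGF21 AAV mice had 47.8, 33.3, 34.2, 21.5 and 48.0 RPM and the efruxifermin mice 33.8, 10.9, 15.8, 26.3 and 36.2 RPM. Efruxifermin 2 and 3 and tumour control 4 were the low libraries, and efruxifermin 5 lay within the healthy range. For efruxifermin against healthy the Gbp2 difference was log2 -0.90 ± 0.39 SE, adjusted p = 0.59. Gbp3, Gbp4 and Gbp7, of the same family, ranged over 2.98 to 33.0 RPM, 6.96 to 95.7 RPM and 15.4 to 114 RPM, with differences of -0.27 to 0.30, -0.76 to 0.29 and -0.20 to 0.15. Igtp, another immunity-related GTPase, ranged over 7.37 to 90.0 RPM with differences of -0.90 to 0.50.

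Mx1 and Mx2 encode dynamin-like antiviral GTPases, and the Mx1 allele of C57BL/6 mice is known to be defective. Mx1 had 1.05, 12.6, 7.20 and 1.10 RPM in the healthy group and 4.27, 16.6, 14.0, 7.04 and 16.0 RPM in the tumour control group. Mx1 values with FGF21 AAV were 13.7, 11.4, 0, 0.935 and 1.27 RPM, and with efruxifermin 18.8, 3.97, 0, 1.58 and 7.85 RPM. Tumour controls were all above 0, FGF21 AAV 3 and efruxifermin 3 were at 0, and efruxifermin 1 was the highest. Mx2 read 0, 1.11, 3.60 and 13.9 RPM in the healthy mice and 3.32, 3.78, 0, 1.35 and 0.390 RPM in the tumour controls. For Mx2, the FGF21 AAV mice had 4.67, 2.98, 0, 7.48 and 0 RPM and the efruxifermin mice 24.1, 19.9, 0.351, 13.3 and 0 RPM. High Mx2 values occurred in healthy 4 and in efruxifermin 1, 2 and 4, and 5 libraries were at 0. Mx1 differed by log2 -1.58 ± 0.87 SE, adjusted p = 0.382, for FGF21 AAV against tumour control, and Mx2 by log2 1.44 ± 0.95 SE, adjusted p = 0.51, for efruxifermin against tumour control.

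Antigen processing was represented by Psmb8 and Psmb9, subunits of the immunoproteasome, and Tap1, a subunit of the peptide transporter into the endoplasmic reticulum. Psmb8 levels in the healthy mice were 71.4, 232, 179.5 and 93.4 RPM, and those in the tumour controls were 366, 331, 180.3, 77.7 and 277 RPM. Psmb8 values with FGF21 AAV were 201, 76.6, 148, 123 and 105 RPM, and with efruxifermin 124, 122, 47.0, 77.5 and 223 RPM. Tumour controls 1 and 2 were the highest Psmb8 libraries and efruxifermin 3 the lowest, with tumour control 4 close to the low end. Psmb9 had 38.7, 189, 139.9 and 64.1 RPM in the healthy group and 253, 222, 188, 38.4 and 131 RPM in the tumour control group. Psmb9 was at 159, 46.2, 99.0, 56.7 and 86.7 RPM under FGF21 AAV and at 76.6, 173, 42.4, 63.3 and 182 RPM under efruxifermin. Tumour controls 1 and 2 were again the highest, and tumour control 4 was the lowest. Tap1 read 44.3, 193, 178 and 48.0 RPM in the healthy mice and 201, 250.1, 187, 29.2 and 218 RPM in the tumour controls. Tap1 values with FGF21 AAV were 102, 21.9, 75.2, 64.2 and 49.5 RPM, and with efruxifermin 79.5, 122, 15.8, 85.8 and 132 RPM. In all 3 genes tumour control 4 lay below the other tumour controls, and healthy 2 and 3 lay above healthy 1 and 4. For efruxifermin against tumour control Psmb8 differed by log2 -1.04 ± 0.43 SE, adjusted p = 0.273. Tap1 differed, for FGF21 AAV against tumour control, by log2 -1.35 ± 0.60 SE, adjusted p = 0.27, and Psmb9 by log2 -0.77 ± 0.51 SE, adjusted p = 0.473. These 3 genes had log2 differences of 0.62 to 0.74 for tumour control against healthy, none of them past the test.

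Both chemokines of the list attract T cells through CXCR3. Cxcl9 levels in the healthy mice were 30.6, 54.2, 33.5 and 30.8 RPM, and those in the tumour controls were 48.9, 45.0, 65.3, 14.9 and 27.7 RPM. Cxcl9 was at 41.0, 54.2, 41.6, 29.6 and 59.7 RPM under FGF21 AAV and at 66.6, 55.9, 5.26, 75.6 and 63.2 RPM under efruxifermin. Efruxifermin 3 and tumour control 4 were the lowest Cxcl9 libraries, while the other efruxifermin mice lay above every tumour control but tumour control 3. Cxcl10 had 0.703, 7.05, 5.40 and 1.47 RPM in the healthy group and 18.5, 9.84, 5.96, 0 and 0 RPM in the tumour control group. For Cxcl10, the FGF21 AAV mice had 9.70, 0, 0, 1.25 and 6.99 RPM and the efruxifermin mice 6.88, 28.8, 0, 0.949 and 14.9 RPM. Cxcl10 was at 0 in 5 libraries and highest in efruxifermin 2. For efruxifermin against tumour control Cxcl9 differed by log2 0.15 ± 0.52 SE, adjusted p = 0.923, and Cxcl10 by log2 0.46 ± 1.01 SE, adjusted p = 0.874.

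Ifi44 (ENSMUSG00000028037) encodes a cytoplasmic protein of incompletely known function. Ifi44 read 34.8, 25.2, 40.3 and 70.0 RPM in the healthy mice and 16.1, 15.9, 24.6, 21.1 and 24.2 RPM in the tumour controls. Ifi44 was at 27.3, 33.3, 39.6, 38.9 and 27.6 RPM under FGF21 AAV and at 73.5, 30.1, 48.4, 68.0 and 37.4 RPM under efruxifermin. Every tumour control lay below every healthy mouse, below every FGF21 AAV mouse and below every efruxifermin mouse. No other member showed this in any of these comparisons. Of all genes, 3.66% were lower without overlap for tumour control against healthy. Against tumour control, 2.71% were higher without overlap for FGF21 AAV and 1.06% for efruxifermin. With 45 members, 1 gene is near these shares, and the comparisons use the same tumour controls. Nothing particular to the list is read from the separation. The means were 42.6 ± 19.3 RPM (SD, n = 4) in healthy mice, 20.4 ± 4.20 RPM (SD, n = 5) in tumour controls, 33.4 ± 5.90 RPM (SD, n = 5) under FGF21 AAV and 51.5 ± 18.9 RPM (SD, n = 5) under efruxifermin. The differences were log2 -0.95 ± 0.35 SE, adjusted p = 0.37 for tumour control against healthy, log2 0.69 ± 0.33 SE, adjusted p = 0.307 for FGF21 AAV against tumour control and log2 1.24 ± 0.33 SE, adjusted p = 0.0796 for efruxifermin against tumour control. DESeq2 gave the last an adjusted p of 0.0250, where 2.57% of the 15588 genes with a DESeq2 adjusted p passed. Without tumour control 4, limma gave efruxifermin against tumour control a log2 difference of 1.26 past the threshold. The summed adipocyte markers were 10204 to 24505 RPM in healthy mice, 1470 to 8880 RPM in tumour controls, 13962 to 31427 RPM under FGF21 AAV and 5331 to 31162 RPM under efruxifermin, and their part in these differences was not tested. Across libraries the Ifi44 slope on the adipocyte score was 0.16 ± 0.14 SE, adjusted p = 0.747 in a limma fit with group.

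Ifi27 (ENSMUSG00000064215), which encodes a mitochondrial and nuclear-envelope protein, showed a like order of means with more overlap. Ifi27 levels in the healthy mice were 167, 236, 220.2 and 511 RPM, and those in the tumour controls were 135, 96.5, 125, 121 and 216 RPM. For Ifi27, the FGF21 AAV mice had 382, 190.4, 166, 270.1 and 369 RPM and the efruxifermin mice 264, 226, 216, 363 and 247 RPM. Tumour controls 1 to 4 were the 4 lowest libraries of the 19, while tumour control 5 lay inside the range of each other group. Means were 284 ± 154 RPM (SD, n = 4), 139 ± 45.5 RPM (SD, n = 5), 275 ± 99.2 RPM (SD, n = 5) and 263 ± 58.7 RPM (SD, n = 5) in healthy, tumour control, FGF21 AAV and efruxifermin mice. The log2 differences were log2 -0.95 ± 0.32 SE, adjusted p = 0.306 for tumour control against healthy, log2 0.96 ± 0.30 SE, adjusted p = 0.124 for FGF21 AAV against tumour control and log2 0.95 ± 0.30 SE, adjusted p = 0.147 for efruxifermin against tumour control. DESeq2 gave FGF21 AAV against tumour control an adjusted p of 0.0486, where 6.89% of the 7085 genes with a DESeq2 adjusted p passed. The Ifi27 slope on the adipocyte score was 0.37 ± 0.11 SE, adjusted p = 0.0698, the smallest adjusted p of any member on that score. Xaf1, a pro-apoptotic antagonist of XIAP, had low counts. Xaf1 had 6.33, 6.68, 0.360 and 21.3 RPM in the healthy group and 12.3, 13.6, 13.0, 10.0 and 20.3 RPM in the tumour control group. Xaf1 values with FGF21 AAV were 12.9, 7.96, 3.96, 16.8 and 7.94 RPM, and with efruxifermin 27.2, 9.26, 16.8, 24.7 and 8.22 RPM. Healthy 3 was the lowest library and efruxifermin 1 the highest, and the difference for efruxifermin against healthy was log2 1.36 ± 0.66 SE, adjusted p = 0.617. Ifi35, a regulator of the RNA sensor pathways, ranged over 11.1 to 43.3 RPM with differences of 0.02 to 0.20. Rtp4, a chaperone of membrane receptors, ranged over 3.86 to 88.5 RPM with differences of -0.12 to 0.20.

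**Figure D3:**
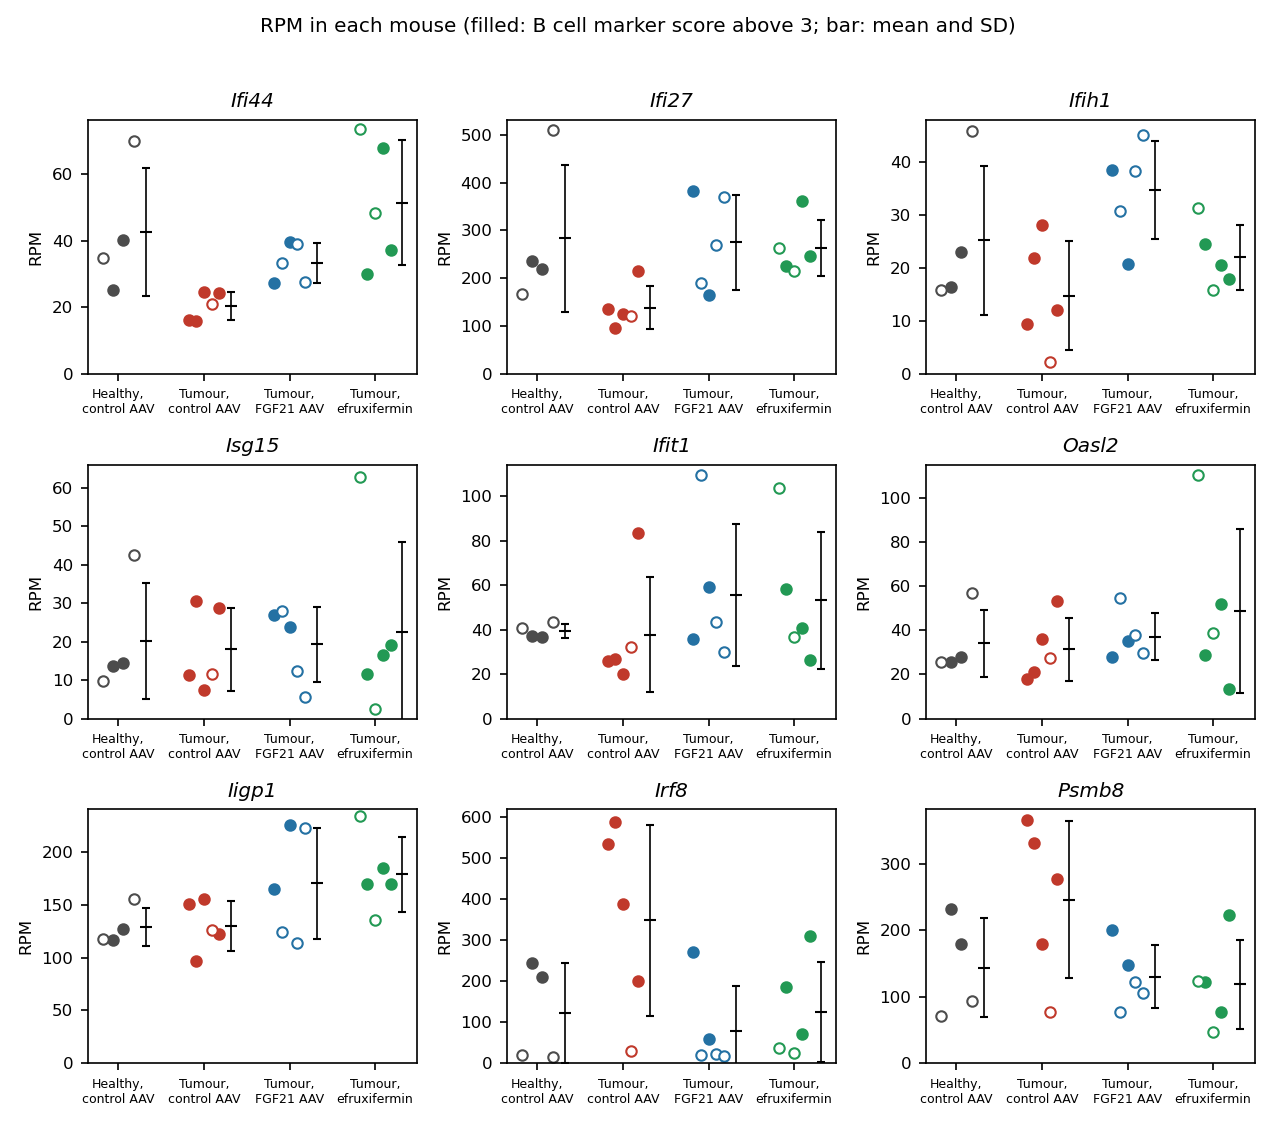
RPM per mouse of 9 members (Ifi44, Ifi27, Ifih1, Isg15, Ifit1, Oasl2, Iigp1, Irf8 and Psmb8) in the 4 groups, with 1 point per mouse, filled where the B cell score is above 3, and bars for the mean and SD, cut at 0 where they would pass it. Ifi44 is the one gene in which all tumour controls lie below all mice of each other group, and in Irf8 the filled points lie above the open ones within each group.

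Some of the interferon-gamma-inducible members were higher where B cell markers were higher. The slope on the B cell score was estimated by limma across all 19 libraries with group and the skeletal muscle score in the same fit, a model chosen after the data were seen. It was past an adjusted p of 0.05 and positive for 5 of the 13 interferon-gamma-inducible members and for 0 of the other 32, beside 5.51% of all genes, and negative for no member, beside 0.112%. The slope in log2 units per unit of score was 0.59 ± 0.048 SE, adjusted p = 6.64e-10 for Irf8, and 0.33 ± 0.054 SE, adjusted p = 1.06e-04 for Tap1. It was 0.27 ± 0.044 SE, adjusted p = 1.15e-04 for Psmb9, 0.25 ± 0.046 SE, adjusted p = 5.43e-04 for Psmb8 and 0.17 ± 0.048 SE, adjusted p = 0.0342 for Irf1. Leaving out each library in turn gave 4 to 6 such members, and Irf8, Psmb8, Psmb9 and Tap1 were among them each time. By comparison Isg15 had a slope of 0.04 ± 0.11 SE, adjusted p = 0.905, Ifit1 of -0.07 ± 0.071 SE, adjusted p = 0.709 and Ifi44 of -0.05 ± 0.059 SE, adjusted p = 0.754. Slopes outside the interferon-gamma-inducible list were not all near 0. Oas3 had 0.40 ± 0.15 SE, adjusted p = 0.128, and Usp18 had 0.37 ± 0.12 SE, adjusted p = 0.0883. Both were steeper than Tap1 but had larger SEs, so the counts of 5 and 0 also depend on precision.

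The levels themselves showed the size of this. Irf8 had a median of 245 RPM in the 11 B-cell-rich libraries and of 22.1 RPM in the 8 others. Tap1 had 178 against 46.2 RPM, Psmb9 173 against 51.5 RPM, Psmb8 201 against 85.6 RPM and Irf1 183 against 102 RPM. All 13 interferon-gamma-inducible members and 20 of the other 32 had the higher median in the B-cell-rich libraries, beside 54.3% of all genes tested. The median was at least 2 times as high for 5 of the 13 and for 4 of the 32, beside 13.9% of the genes with a ratio, and Oas1a had no ratio because its median in the other libraries was 0. T and natural killer cell markers were high in the same libraries, with a summed level of 40.2 to 1017 RPM against 1.40 to 29.4 RPM, so B cell and T cell content cannot be told apart here. These libraries were unevenly spread over the groups, with 4 of the 5 tumour controls among them and 2 of the 5 FGF21 AAV mice. Among B-cell-rich libraries alone, the Irf8 difference for FGF21 AAV against tumour control was -1.64, and among the others it was -0.53, from 3 mice against 1. Genes of the signalling pathway that were no members were counted in the same fit as the slopes. Of 27, 6 were past the test and positive, beside 5.51% of all genes. Among them were Ptpn6 at 0.57, Aim2, a DNA sensor, at 0.49 and Irf5, a transcription factor of Toll-like receptor signalling, at 0.40. Tyk2 at 0.29 and Jak1 at 0.20 were also among them. The part of B, T and natural killer cells in the group differences of single members was not tested beyond these fits.

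**Figure D4:**
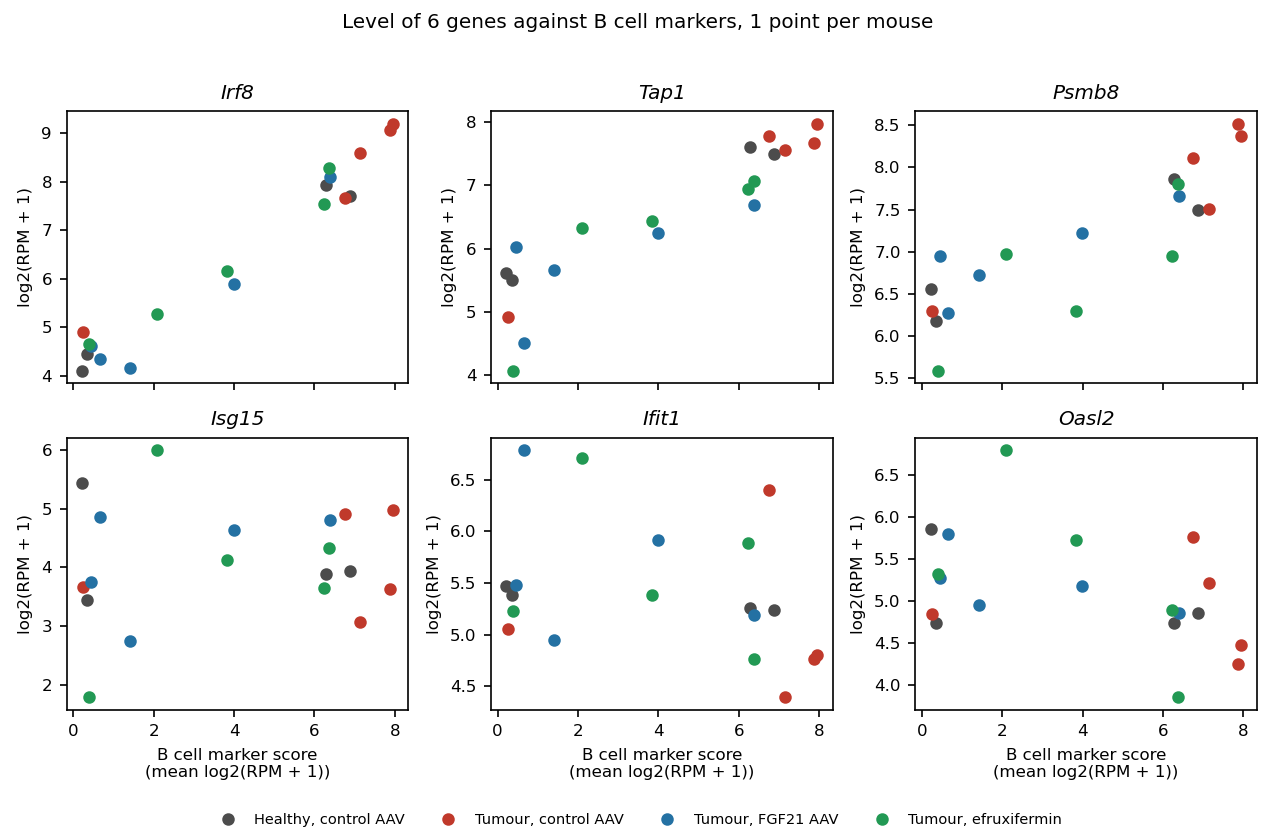
Level of 6 members in log2(RPM + 1) against the B cell score (mean log2(RPM + 1) of 10 B cell genes), with 1 point per mouse coloured by group. Irf8, Tap1 and Psmb8 rise with the score across all groups, with slopes of 0.59, 0.33 and 0.25, and Isg15, Ifit1 and Oasl2 show no slope past the test.

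**Figure D5:**
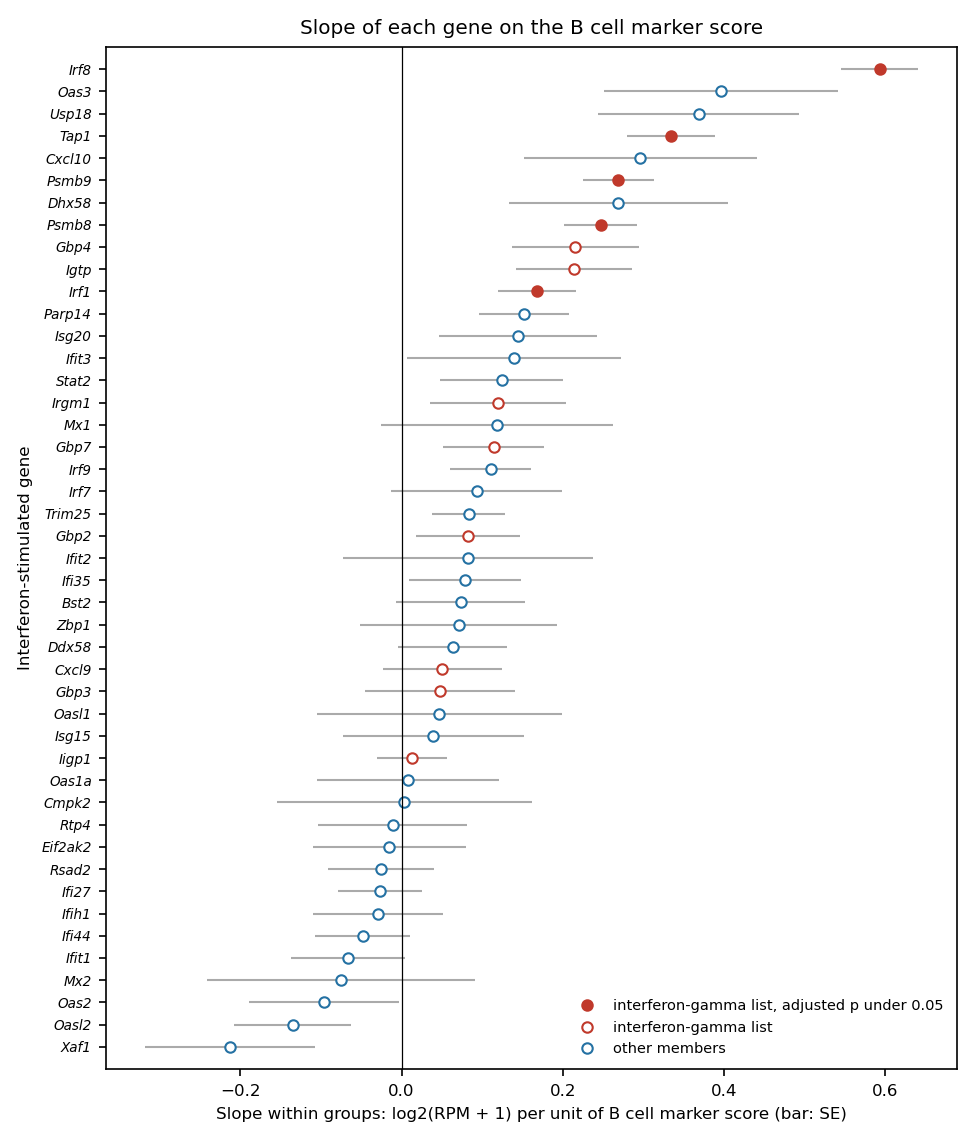
Slope of each of the 45 members on the B cell score, in log2 units per unit of score with SE bars, from the fit with group and the muscle score, with filled points for an adjusted p under 0.05. The 5 filled points are Irf8, Tap1, Psmb9, Psmb8 and Irf1, all of them interferon-gamma-inducible.

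A promoter window of each of 7 members is printed to show which motif letters it holds. RefSeq windows on GRCm38.p6, from 250 bases before to 50 after the annotated start, were found for 34 of the 45 members, as 41 windows. A pair of GAAA motifs separated by NN, the core of an interferon-stimulated response element, searched on both strands, occurred in 17 of the 41 windows (41.5%), beside 3.44% of 32851 windows of all genes. TTCNNNGAA, the core of a gamma-activated site and its own reverse complement, occurred in 11 of 41 (26.8%), beside 8.30%. The 2 motifs were counted separately, and overlapping matches each counted. By gene, 5 of the 11 interferon-gamma-inducible members with a window held the GAAA pair (45.5%) and 5 held TTCNNNGAA. Of the other 23 members with a window, 12 held the GAAA pair (52.2%) and 6 held TTCNNNGAA (26.1%), beside 3.99% and 9.55% of all genes. Of the 5 genes with a slope on the B cell score, a set known from its values, 0 held the GAAA pair. TTCNNNGAA was held by 3 of the 5, in 3 of their 7 windows. The sequences below run 5′ to 3′ on the gene's strand with motif matches in capitals. Irf8 (chr8:120736108-120736407, plus strand), Irf1 (chr11:53769764-53770063, plus strand) and Psmb8 (chr17:34197945-34198244, plus strand) carry TTCNNNGAA in the windows printed, Irf8 with 2 matches. A second window of Irf8 (chr8:120738389-120738688) and of Irf1 (chr11:53770223-53770522), not printed, held neither motif. Tap1 (chr17:34187306-34187605, plus strand) carries neither motif and shares 275 bases with the window of Psmb9 on the opposite strand. Isg15 (chr4:156200769-156201068, minus strand) carries 3 overlapping matches of the GAAA pair and Ifit1 (chr19:34640639-34640938, plus strand) carries 2, whereas Ifi44 (chr3:151749861-151750160, minus strand) carries neither. A match is a string of letters and no measured binding site, and the build differs from the GRCm39 build of the counts.
Irf8: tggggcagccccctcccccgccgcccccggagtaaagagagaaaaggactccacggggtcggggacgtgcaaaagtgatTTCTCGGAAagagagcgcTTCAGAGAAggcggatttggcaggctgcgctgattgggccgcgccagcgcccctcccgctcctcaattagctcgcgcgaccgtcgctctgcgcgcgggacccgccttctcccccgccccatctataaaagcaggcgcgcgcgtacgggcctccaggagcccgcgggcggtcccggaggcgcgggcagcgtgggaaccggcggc
Irf1: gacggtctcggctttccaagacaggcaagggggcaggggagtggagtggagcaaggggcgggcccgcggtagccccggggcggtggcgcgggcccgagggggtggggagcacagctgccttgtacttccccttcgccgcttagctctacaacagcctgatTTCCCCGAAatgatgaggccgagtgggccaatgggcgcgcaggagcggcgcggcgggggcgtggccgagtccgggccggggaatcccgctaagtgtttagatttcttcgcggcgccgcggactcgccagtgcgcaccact
Psmb8: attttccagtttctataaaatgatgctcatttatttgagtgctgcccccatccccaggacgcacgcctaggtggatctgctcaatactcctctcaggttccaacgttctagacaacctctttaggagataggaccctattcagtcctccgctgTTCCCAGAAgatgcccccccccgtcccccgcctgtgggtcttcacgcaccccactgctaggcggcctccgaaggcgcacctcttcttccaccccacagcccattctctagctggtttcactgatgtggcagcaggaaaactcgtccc
Tap1: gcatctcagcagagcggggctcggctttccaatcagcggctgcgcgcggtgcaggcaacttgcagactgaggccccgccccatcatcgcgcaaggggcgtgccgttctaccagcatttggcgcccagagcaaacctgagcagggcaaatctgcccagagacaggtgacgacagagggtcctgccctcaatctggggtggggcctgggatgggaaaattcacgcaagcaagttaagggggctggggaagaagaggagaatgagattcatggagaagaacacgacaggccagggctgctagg
Isg15: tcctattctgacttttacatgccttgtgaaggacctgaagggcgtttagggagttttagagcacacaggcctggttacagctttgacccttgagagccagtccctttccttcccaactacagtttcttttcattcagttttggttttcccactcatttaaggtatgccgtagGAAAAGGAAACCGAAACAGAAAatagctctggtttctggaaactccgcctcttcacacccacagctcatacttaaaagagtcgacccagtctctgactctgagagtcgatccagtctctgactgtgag
Ifit1: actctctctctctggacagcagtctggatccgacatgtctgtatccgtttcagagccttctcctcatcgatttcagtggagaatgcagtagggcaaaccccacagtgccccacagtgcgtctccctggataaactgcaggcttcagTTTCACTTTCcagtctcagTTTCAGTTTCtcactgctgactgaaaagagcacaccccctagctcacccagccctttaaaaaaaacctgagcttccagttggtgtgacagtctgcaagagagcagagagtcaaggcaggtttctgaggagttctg
Ifi44: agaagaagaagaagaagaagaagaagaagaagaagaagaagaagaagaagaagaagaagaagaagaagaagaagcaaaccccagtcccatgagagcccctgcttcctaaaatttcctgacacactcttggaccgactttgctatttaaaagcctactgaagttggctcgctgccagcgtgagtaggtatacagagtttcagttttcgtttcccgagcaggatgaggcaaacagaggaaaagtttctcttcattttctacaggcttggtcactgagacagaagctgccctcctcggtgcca

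Single mice weighed on members inside and outside the interferon-gamma-inducible list. Efruxifermin 1 was the highest of all 19 libraries for 16 of 45 members, of which 14 were among the 32 outside the interferon-gamma-inducible list and 2 among the 13. It also had the highest macrophage score, the mean log2(RPM + 1) of 10 macrophage genes, at 7.06. Efruxifermin 3 was the lowest, or tied for the lowest at 0, for 17 members, the interferon-gamma-inducible Gbp7, Igtp, Psmb8, Tap1 and Cxcl9 among them. It had 9 members at 0 and the lowest macrophage score, at 3.58. Tumour control 4 was the lowest for 14 members, ties at 0 included, with 6 at 0. Irf1, Gbp3 and Psmb9 of the interferon-gamma-inducible list were among those 14. These ranks of the libraries were not counted over all genes. A slope on the macrophage score, with group in the fit, passed for 7 members, beside 2.80% of all genes: Rtp4 at 1.14 ± 0.22 SE, adjusted p = 0.00894, Ifit3 at 1.48 ± 0.33 SE, adjusted p = 0.0183, Isg15 at 1.18 ± 0.26 SE, adjusted p = 0.0190, and Irf7, Gbp7, Cxcl9 and Ifit2 at 1.12, 0.74, 0.93 and 1.44. Without efruxifermin 1, 6 members passed, beside 5.52% of all genes. Without efruxifermin 3 no member and no other gene had a positive slope past the test, nor without efruxifermin 1 and 3 together. Without efruxifermin 3 the slopes were 0.27 for Cxcl9, 0.33 for Gbp7, 0.68 for Rtp4 and 0.97 for Ifit3, but 1.21 for Irf7, 1.25 for Isg15 and 2.09 for Ifit2. Negative macrophage slopes past the test were found for 0 members, beside 0.0882% of all genes. No member had a slope past the test on the adipocyte score, beside 2.22% of all genes that were positive and 0.047% that were negative.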

How the data were processed

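Inguinal adipose RNA from 19 mice was measured by 3' tag sequencing (QuantSeq 3' FWD, per the labels' protocols), which reads 1 fragment near the 3' end of a transcript. The authors deposited 1 table of RPM values (reads scaled by library size) per gene and library. The submitters' processing notes name FastQC, cutadapt, HISAT2, HTSeq and the build GRCm39, and strand setting and versions are not given in the sources used here. Every RPM value tested was a whole number of reads (100% within 0.05 of a read), and reads were recovered from them, giving 2011067 to 3693864 reads per library. Values were analysed as log2(RPM + 1) with limma 3.58.1 in R 4.3.3 (trend, 4 groups in 1 fit). Testing was limited to the 17013 of 24844 genes that reached 1 RPM in 4 libraries, and p-values were adjusted over all of them by Benjamini-Hochberg, two-sided, with a threshold of 0.05. Intervals are 95% intervals of the limma fit, and fold changes of low genes are understated on this scale. edgeR 4.0.16 and DESeq2 1.42.0 were run on the recovered reads as alternatives. The fits were also tested on simulated data, but no result of that is given here and nothing rests on it. Other alternatives were the pseudocount, the filter, the scaling, the samples in the fit, marker scores as covariates and leaving out each library. Groups come from the sample titles, and the labels do not say that mice with the same number were paired. Among 27 same-numbered pairs 8 had correlated deviations above 0.1, as did 24 of 108 other pairs, so the numbers were not treated as pairing. No library was a duplicate of another.

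The members and lists were chosen with earlier results of these data known, so no test over the list is given. Values in every library are printed for the 4 members with the largest log2 difference in each comparison, the member of highest mean level in each role group, and 5 more (Irf1, Psmb9, Ifi44, Irf9 and Eif2ak2) chosen after their values were seen. Values are listed in the order of the replicate numbers, which carries no meaning. Figures were drawn with matplotlib 3.10.9. One gene of the signalling pathway is not reported here.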

Additional observations from a re-analysis of the deposited data

Results flagged for a closer look

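For the 29 members printed in full and 4 sums or means over the members, 132 groups of values were checked. The check looked for a library far from the rest of its group, and 14 were found, all of single members. Its cutoff gives about 1 in 20 only for independent, normally distributed values. The members share the same mice and include low counts, so no excess over chance is read from the 14. A high library stood apart for Cxcl9 in healthy 2 (54.2 RPM), Isg15 and Oasl2 in healthy 4 (42.5 and 56.8 RPM), Ifit1 in tumour control 5 (83.5 RPM), Irf8 and Oas1a in FGF21 AAV 1 (272 and 2.52 RPM) and Oasl1 in FGF21 AAV 5 (9.85 RPM). In efruxifermin 1 the same held for Isg15 (62.9 RPM), Ifit2 (22.5 RPM) and Oas1a (2.82 RPM). A low library stood apart for Cxcl9 in efruxifermin 3 (5.26 RPM) and for Ddx58, Gbp2 and Tap1 in tumour control 4 (9.47, 15.4 and 29.2 RPM). Efruxifermin 1 and 3 and tumour control 4 account for 7 of the 14, and these are the libraries at the ends of the macrophage score and, for tumour control 4, the highest in skeletal muscle markers. Efruxifermin 3 also had the fewest genes detected of the 19 libraries, 12537 where the median was 15751. Its share of reads on 1 gene, Gm42418, was the highest at 17.3%, where the median was 5.76% and FGF21 AAV 2 had 15.4%. Efruxifermin 1 and tumour control 4 had 15769 and 14612 genes detected, and 3.62% and 5.76% of reads on Gm42418. What sets efruxifermin 1 and 3 and tumour control 4 apart was not tested.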

How the results depend on the processing

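No member passed under any of the 16 settings or with any of the 19 libraries left out for efruxifermin against FGF21 AAV or for any group against healthy mice. For FGF21 AAV against tumour control DESeq2 called 1 member (Ifi27) where it called 488 genes, and 5 passed without tumour control 4 and efruxifermin 3 (Irf8, Tap1, Psmb8, Irf1 and Irf9, Irf8 at -3.21 with an adjusted p of 0.0171) where 10.5% of all genes did, a setting chosen after seeing the data. Leaving out 1 library gave 0 to 3. For efruxifermin against tumour control DESeq2 called 1 (Ifi44) among 400 genes, the B-cell-rich libraries alone 1 (Tap1, -0.93) among 507, and the setting without tumour control 4 and efruxifermin 3 also 1 (Ifi44) among 774, while leaving out 1 library gave 0 to 2. In the B-cell-poor libraries alone the members' median was -0.75 for tumour control against healthy, 0.63 for FGF21 AAV against tumour control and 0.90 for efruxifermin against tumour control, all of which rest on tumour control 4 as the lone tumour control, assumed to vary like the other groups. There Irf8 turned to 0.057 for efruxifermin against tumour control, and Isg20 to 0.63 for efruxifermin against FGF21 AAV. Slopes on the macrophage score passed for 0 members without tumour control 4 and efruxifermin 3, for 0 without the 2 libraries farthest from the median score and for 0 to 7 with 1 library left out. With the replicate number as a block no member passed in any comparison, the medians were -0.03, -0.03, -0.07, 0.02, -0.08 and -0.08, and 7 of 19 libraries were closest to their own number. Of 836 values of the 24 differences named by rule, the 4 largest in each comparison, 832 kept direction and side of the threshold; the other members are not in this count.

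Over all genes the count called for FGF21 AAV against tumour control was 96, with 2 to 1767 under other settings and 7 to 1018 with 1 library left out. For efruxifermin against tumour control it was 130, with 0 to 774 and 5 to 637, and for tumour control against healthy it was 8, with 0 to 227 and 1 to 64. For efruxifermin against FGF21 AAV it was 0, with 0 to 14 and 0 to 2, for FGF21 AAV against healthy 2, with 0 to 21 and 1 to 8, and for efruxifermin against healthy 0, with 0 to 16 and 0 to 1. Scaling moved the median of all genes by 0.117 (TMM) and 0.145 (size factors) for tumour control against healthy. The cause of these changes was not tested. With 4 or 5 mice per group and 2011067 to 3693864 reads per library, the 95% interval did not exclude a 2-fold difference for most members.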

Other observations

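Interferon-induced genes outside the 45 gave a mixture of higher and lower values. Of a list of 50 further genes 48 were tested, and none passed limma's test in any comparison. For FGF21 AAV against tumour control 2 stood higher and 9 lower at an unadjusted p under 0.05, beside 8.82% and 7.14% of all genes, with a median log2 difference of -0.31 beside -0.05 for all genes. For efruxifermin against tumour control 3 stood higher and 3 lower, beside 6.53% and 7.35% of all genes. DESeq2 called 2 of the list in the first comparison (Pml and Mndal, both lower) and 1 in the second (Ifitm3, higher). Of all genes to which DESeq2 gave an adjusted p, 6.89% and 2.57% passed in these comparisons. Ccl5, a chemokine of T and natural killer cells, had a log2 difference of -3.37 with an adjusted p of 0.255, and Ms4a4c, a membrane protein of leukocytes, one of -3.17 with an adjusted p of 0.168. The slope on the B cell score, with group and the muscle score in the fit, was positive and past the threshold for 12 of these 48 genes, beside 5.51% of all genes. Among them were Ccl5 at 1.00, Ms4a4c at 0.65 and Nlrc5, the activator of class I antigen presentation genes, at 0.42 per unit of score, all named after their values were seen.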
